A study of Mus musculus with 6 samples.

Results

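A set of 10 genes of the cytosolic iron-sulfur pathway and of DNA repair was examined in whole mouse kidneys at postnatal day 13. They were chosen by symbol, and all 10 were found among the 24422 genes of the count tables. Ciapin1, Ciao1 and Mms19 belong to the machinery that builds iron-sulfur clusters in the cytosol and hands them to target proteins. Ercc2, Rtel1, Brip1 and Ddx11 encode iron-sulfur DNA helicases, Dna2 an iron-sulfur nuclease and helicase, and Nthl1 and Mutyh iron-sulfur DNA glycosylases.

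The 3 Control kidneys were labelled wild type, and the series gives its samples as biological replicates. The study describes its wild type controls as littermates, but the sample titles name no litters. The 3 TfR1 knockout kidneys were labelled Tfr1f/f;SixCre. Per the study, the exons floxed in the transferrin receptor gene Tfrc are those of its transmembrane domain. They are deleted by Six2Cre, a recombinase line active in nephron progenitors. All 6 samples were C57BL/6 kidneys from mice on a diet with 220 ppm iron. Six2Cre spares the collecting duct, stroma, vessels and blood cells, and the study describes tubule cells that escaped deletion, so a whole-kidney count mixes deleted and undeleted cells.

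Iron-sulfur clusters are small inorganic cofactors that are assembled from iron and sulfide in mitochondria and cytosol. A scaffold and electron-transfer stage, to which Ciapin1 belongs, makes the cytosolic cluster, and a targeting complex with Ciao1 and Mms19 inserts it. The recipient helicases, nucleases and glycosylases unwind, trim or excise DNA during replication and repair. A count of messenger RNA does not measure whether a protein carries its cluster.

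The libraries held between 16591156 and 22898008 counted reads, and 16509 genes received an adjusted p. Tfrc had 5229 ± 1434 normalized counts in Control and 5640 ± 1482 in knockout libraries (n = 3 each). The groups overlapped and it did not pass (log2 fold change 0.11, SE 0.29, DESeq2 adjusted p 0.853). Only the exons of the transmembrane domain were floxed, and this count covers the whole gene, so reads from other exons can remain. Exons were not counted apart. The count of this gene therefore does not check the labels, and knockout libraries below are those labelled so. Markers of the kidney tubule were present in every library. Marker lists differed between groups, and their part in the results here was not tested. The summed normalized count of 7 thick ascending limb markers ran from 49585 to 115624 in Control and from 14613 to 26475 in knockout libraries, with 6 of 7 lower. That of 9 macrophage markers ran from 2693 to 4370 and from 7714 to 9661, with 6 of 9 higher. Among the other lists, 3 of 10 proximal tubule markers were lower (1 with edgeR, 6 without Control replicate 3) and 1 higher, 4 of 5 distal convoluted tubule markers lower, 4 of 8 collecting duct markers higher (1 with edgeR, 2 to 3 with 1 library left out), and 1 of 5 podocyte markers higher. The 1 of 6 endothelial markers higher and the 1 of 7 stromal markers lower became 0 with edgeR, and ran from 0 to 2 and from 0 to 1 with 1 library left out. Of the erythroid markers 1 of 3 tested was lower, and 4 globin genes had 0 counts in every library. Marker sums also differed within Control. For proximal tubule markers Control replicate 3 held 74330 normalized counts, against 145738 and 144525 in Control replicates 1 and 2. For stromal markers it held 145405, against 73387 and 71297. The part of this difference in the results here was not tested.

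The DNA just upstream of 3 of these genes is shown because they differ in the promoter words searched, which are bound by regulators of cell-cycle genes or by the general factor NF-Y, and because Dna2 was the single gene of the 10 past the test. The sequences are 250 bases before the RefSeq start site, read 5′ to 3′ on the gene's strand, and each was found once in its chromosome of the mm9 (NCBIM37) build. Capitals mark a match on either strand to the E2F words TTTCCCGC, TTTGGCGC, TTTCGCGC or TTTGCCGC, the CHR words TTTGAA or TTCGAA, or the CCAAT box. The regions are chr10:62409527-62409776 on the plus strand for Dna2, chr11:86014696-86014945 on the minus strand for Brip1 and chr17:24769377-24769626 on the plus strand for Nthl1.
Dna2: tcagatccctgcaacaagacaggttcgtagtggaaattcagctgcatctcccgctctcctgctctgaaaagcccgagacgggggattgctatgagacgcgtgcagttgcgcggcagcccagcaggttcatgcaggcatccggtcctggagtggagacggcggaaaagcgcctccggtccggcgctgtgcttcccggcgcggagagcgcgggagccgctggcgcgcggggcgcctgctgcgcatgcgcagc
Brip1: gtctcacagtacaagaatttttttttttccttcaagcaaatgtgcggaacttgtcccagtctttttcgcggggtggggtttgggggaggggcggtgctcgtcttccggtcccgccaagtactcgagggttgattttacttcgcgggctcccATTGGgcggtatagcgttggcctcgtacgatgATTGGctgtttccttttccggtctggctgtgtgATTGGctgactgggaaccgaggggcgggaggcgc
Nthl1: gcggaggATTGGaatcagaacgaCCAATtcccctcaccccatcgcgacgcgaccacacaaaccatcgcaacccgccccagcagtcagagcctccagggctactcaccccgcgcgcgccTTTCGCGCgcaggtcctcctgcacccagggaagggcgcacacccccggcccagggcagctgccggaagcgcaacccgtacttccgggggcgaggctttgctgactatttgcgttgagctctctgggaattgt

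Promoter entries existed for 9 of the 10 genes, all but Ddx11. An E2F word was found for 1 of 9 (Nthl1) against 3.46% of 12375 tested genes with an entry. A CHR word was found for 1 of 9 (Rtel1) against 14.9%, and a CCAAT box for 5 of 9 (Ercc2, Brip1, Nthl1, Mutyh and Mms19) against 39.4%. The Dna2 window held none of these words, and the words overlapped no other searched word in the windows shown. A match describes letters only.

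The comparison asked whether transcripts of these genes differed between TfR1 knockout and Control kidneys. Of the 10 genes, 1 was lower and 0 were higher at an adjusted p under 0.05 (DESeq2 Wald test). Over all 16509 genes tested, 7.18% were lower and 7.74% higher at this threshold, so 1 of 10 is near the background. The single gene was Dna2, and its call was not kept by edgeR's quasi-likelihood test, which called 0 of the 10 against 2.80% lower and 3.22% higher among its 15308 genes. limma-voom also called 0 of the 10, against 2.98% lower and 3.17% higher. At an unadjusted p under 0.05, 3 of the 10 were lower with DESeq2 (Dna2, Brip1 and Mutyh), against 13.5% of all genes tested. With a change of at least 2-fold required as well, 0 of the 10 were called, against 4.46% lower and 4.41% higher among all genes tested.

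The plot of values by library shows the 10 genes in order of role. In 6 of them (Dna2, Brip1, Ddx11, Nthl1, Mutyh and Ciao1) every knockout library lay below every Control library, in 0 every knockout library lay above, and in 4 the groups overlapped. Such a separation downward was found for 16.9% of all genes tested. Fewer cells of a type and less RNA per cell cannot be told apart in these whole-kidney samples.

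**Figure D1:**
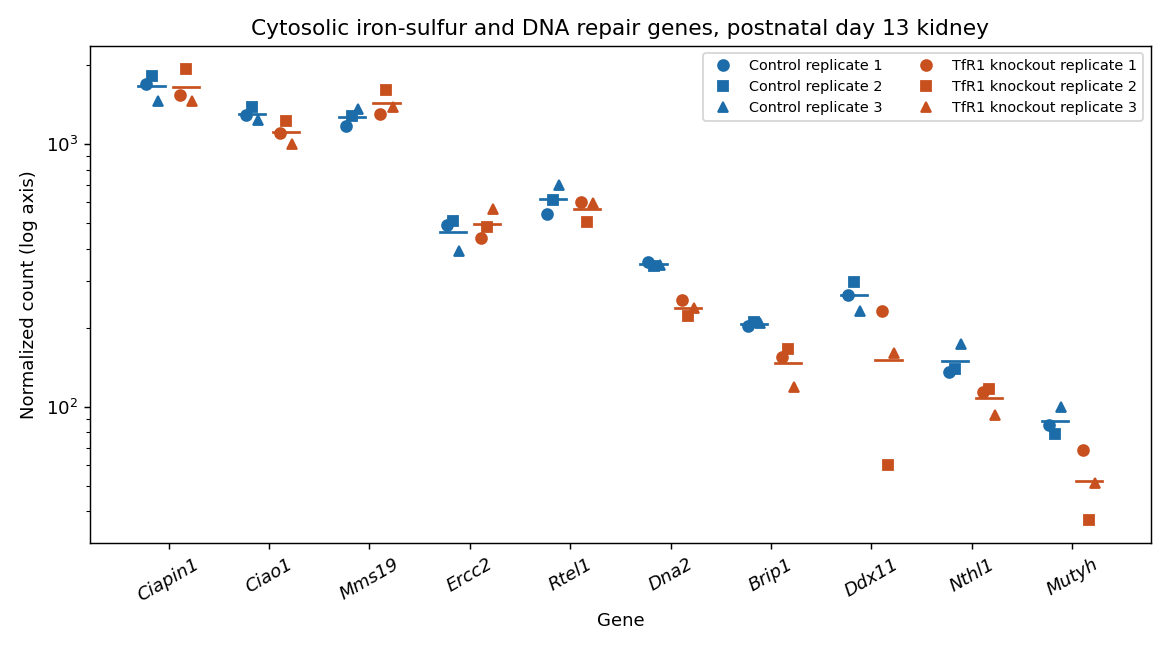
Normalized counts (log axis) of the 10 genes in 3 Control (blue) and 3 TfR1 knockout (orange) libraries, with symbols for the replicate and bars for the group mean. The groups separate clearly for Dna2 and Brip1 and narrowly for Ciao1 and Ddx11. For Ddx11 the lowest Control value is 231.4 and the highest knockout value 230.7, and its knockout values spread from 60.1 to 231.

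Ciapin1, Ciao1 and Mms19, the cytosolic assembly and targeting factors, did not pass the test. Positions of all 10 genes are in the mm9 build. Ciapin1 (chromosome 8, 97343718 to 97362258), which passes electrons to the nascent cluster, had 1699, 1815 and 1457 normalized counts in Control and 1543, 1940 and 1462 in knockout libraries. The groups overlapped, with means of 1657 ± 182 and 1648 ± 255 (mean ± SD, n = 3 each). Its log2 fold change was -0.0083 (SE 0.19, DESeq2 adjusted p 0.985), and the 95% interval of the fold ran from 0.766 to 1.29. The sign of this value turned when single libraries were left out.

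Mms19 (chromosome 19, 42015576 to 42055647), the adaptor that brings clusters to DNA repair and replication enzymes, stood at 1173, 1278 and 1364 normalized counts in the Control libraries and at 1304, 1601 and 1388 in the knockout libraries, each in replicate order. The groups overlapped, with a log2 fold change of 0.17 (SE 0.16, DESeq2 adjusted p 0.542). Ciao1 (chromosome 2, 127066674 to 127073552), a WD-repeat subunit of the same targeting complex, had 1293, 1379 and 1240 normalized counts in Control and 1103, 1224 and 999.9 in knockout libraries. All 3 knockout values were lower, although the highest of them stood only just under the lowest Control value. The log2 fold change of Ciao1 was -0.23 (SE 0.16, DESeq2 adjusted p 0.346). It passed with total-count scaling (DESeq2 adjusted p 0.0417), a scaling that moved the median log2 fold change of all genes by -0.10.

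Among the helicases, Ercc2 and Rtel1 did not pass the test and overlapped between groups. Ercc2 (chromosome 7, 19967359 to 19981043), the XPD subunit of the transcription and repair factor TFIIH, had 493, 508 and 392 normalized counts in Control and 438, 485 and 566 in knockout libraries. Its log2 fold change was 0.09 (SE 0.21, DESeq2 adjusted p 0.814), and with total-count scaling it was -0.0020. Rtel1 (chromosome 2, 181054444 to 181091321), which unwinds telomere loops, had 540.1, 614 and 702 in Control and 599.6, 507 and 596 in knockout libraries. Its log2 fold change was -0.12 (SE 0.19, DESeq2 adjusted p 0.727).

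Dna2 (chromosome 10, 62409774 to 62436933) trims flaps and resects DNA ends during replication and repair. Control replicates 1, 2 and 3 held 355, 343 and 347 normalized counts of Dna2, and knockout replicates 1, 2 and 3 held 255, 223 and 238. The Control values were tight and the 3 knockout values all lay well below them. The mean fell from 348 ± 6.50 to 239 ± 16.0 (n = 3 each), a log2 fold change of -0.54 (SE 0.18, DESeq2 adjusted p 0.0180). The fold was 0.686, with a 95% interval from 0.541 to 0.870. The call was lost with edgeR (adjusted p 0.0891) and limma-voom (adjusted p 0.0848), although the log2 fold changes of -0.56 and -0.56 were alike. Counts were also simulated for 19985 genes from edgeR's dispersion estimates, with 50 genes changed 1.5-fold, 50 changed 2-fold and 100 changed 4-fold. In them 59 of 192 DESeq2 calls and 5 of 108 edgeR calls were false. Of the 50 genes changed 1.5-fold, DESeq2 recovered 6 and edgeR 0. Far more genes were called in the real libraries, so neither these false shares nor the recovered numbers carry over to Dna2. The DESeq2 call held in 1 of the 6 fits that each left out a library, the one without TfR1 knockout replicate 1, and the value itself ran from -0.59 to -0.50 over them. Without Control replicate 1, Control replicate 2, Control replicate 3, TfR1 knockout replicate 2 or TfR1 knockout replicate 3 the DESeq2 adjusted p was 0.209, 0.160, 0.0574, 0.0829 and 0.140.

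Brip1 (chromosome 11, 85871638 to 86014695), the Fanconi helicase that binds Brca1, had 203, 210.0 and 209 normalized counts in Control and 154, 166 and 119 in knockout libraries. The groups did not overlap, and the log2 fold change was -0.50 (SE 0.23). It missed the threshold over all genes tested (DESeq2 adjusted p 0.125). The 95% interval of the fold, 0.517 to 0.963, is not adjusted for the number of genes tested. With total-count scaling Brip1 passed (DESeq2 adjusted p 0.0290).

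Ddx11 (chromosome 17, 66472860 to 66501507), a helicase of sister chromatid cohesion, had 266, 300 and 231 normalized counts in Control and 231, 60.1 and 161 in knockout libraries. The lowest Control and the highest knockout value nearly touched, and TfR1 knockout replicate 2 stood far below the rest. The log2 fold change was -0.82 (SE 0.44, DESeq2 adjusted p 0.215). It was -0.44 without TfR1 knockout replicate 2 and -1.26 without TfR1 knockout replicate 1, where it passed (DESeq2 adjusted p 0.0241).

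The glycosylases start base excision repair. Nthl1 (chromosome 17, 24769627 to 24775783) removes oxidized pyrimidines. It had 135, 139 and 173 normalized counts in Control and 114, 116 and 92.7 in knockout libraries, with no overlap. Its log2 fold change was -0.47 (SE 0.25, DESeq2 adjusted p 0.215). Mutyh (chromosome 4, 116480328 to 116492045) removes adenine paired with oxidized guanine. It had 84.9, 79.1 and 100.1 in Control and 68.6, 37.1 and 51.1 in knockout libraries, again with no overlap.

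The log2 fold change of Mutyh was -0.74 (SE 0.34, DESeq2 adjusted p 0.134). It was -0.99 without TfR1 knockout replicate 1, where it passed (DESeq2 adjusted p 0.0493), and -0.55 without TfR1 knockout replicate 2. Mutyh was the shallowest of the 10, with 29 to 103 raw counts per library. At 29 counts the counting error alone is 18.6%.

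The plot of fold changes sets the 10 side by side. For 8 of the 10 genes the 95% interval of the fold lay above 0.5, and for Mutyh and Ddx11 it reached down to 0.374 and 0.312. For all 10 it lay below 2. A halving was therefore outside the interval of each gene except Mutyh and Ddx11, while smaller differences were not resolved for the 9 genes that did not pass.

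**Figure D2:**
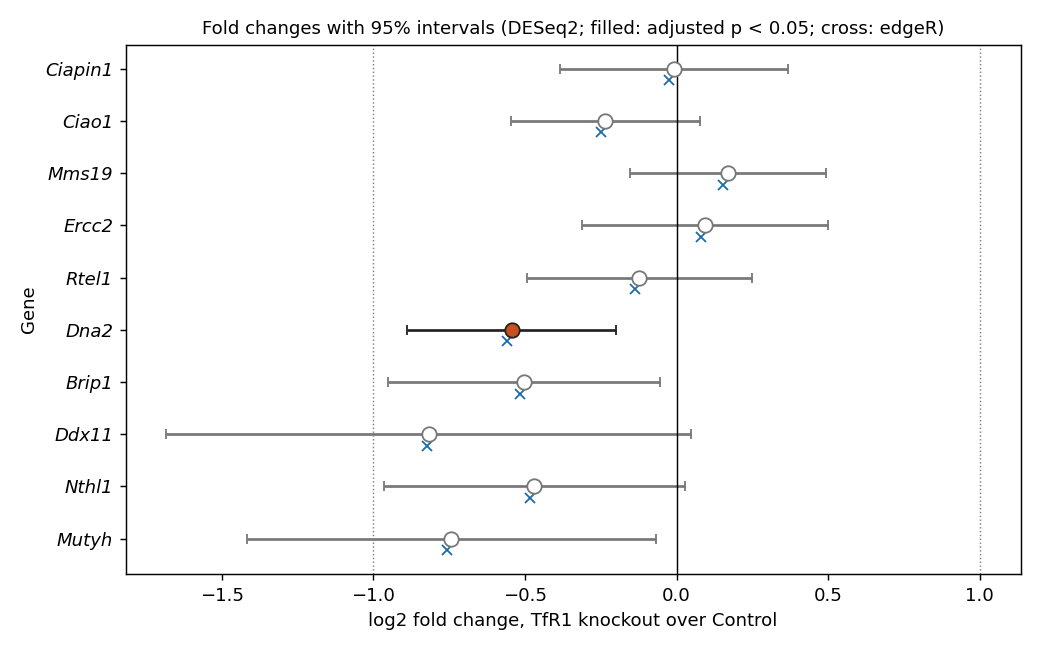
DESeq2 log2 fold change of TfR1 knockout over Control with its 95% interval for each gene (n = 3 each), filled where the adjusted p was under 0.05, with edgeR's value as a cross and dotted lines at a 2-fold change. Dna2 alone is filled, and the intervals of Ddx11 and Mutyh are the widest.

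The plot of fits without 1 library shows how far each value rests on a single kidney. The values of Dna2, Brip1, Nthl1, Mutyh, Ddx11, Ciao1 and Rtel1 stayed below 0 in all 6 such fits, and that of Mms19 stayed above 0. Ercc2 and Ciapin1 crossed 0.

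**Figure D3:**
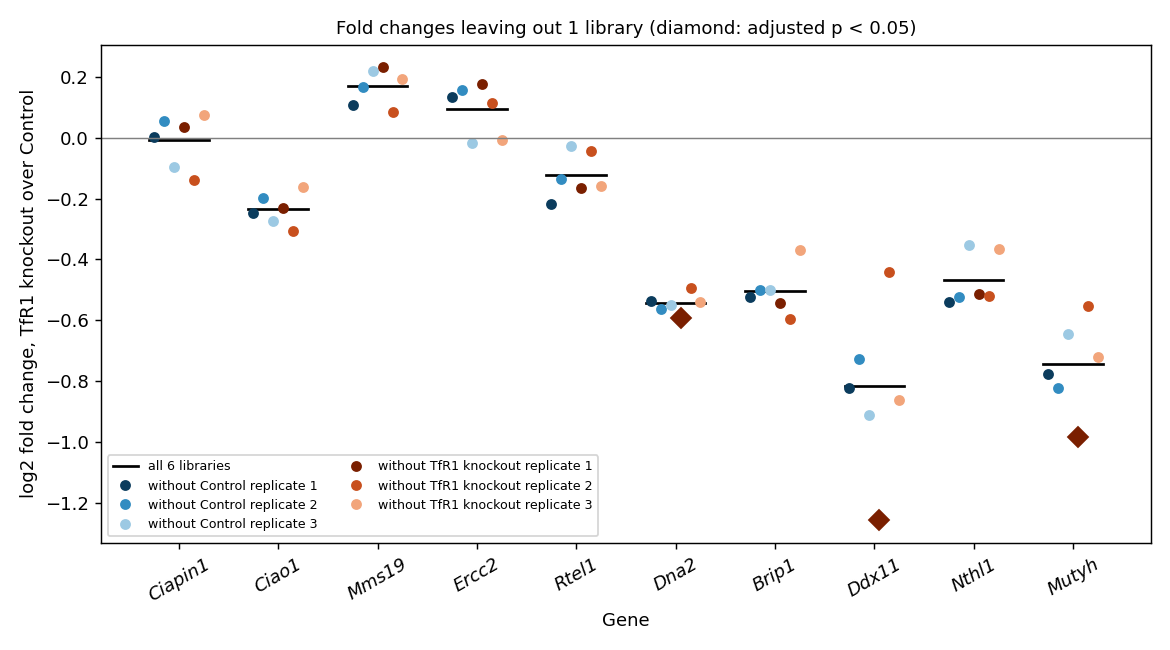
Log2 fold change of each gene with all 6 libraries (black bar) and with each library left out in turn (coloured points; diamonds mark an adjusted p under 0.05). Ddx11 runs from -1.26 to -0.44, and Dna2 keeps within -0.59 to -0.50.

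Levels between genes were compared per kilobase of annotated exon, as normalized counts per kilobase in Control libraries (n = 3). Ciao1 (408) was highest, then Ciapin1 (291), Nthl1 (138), Mms19 (122), Ercc2 (111), Rtel1 (93.5), Ddx11 (64.0), Dna2 (59.2), Mutyh (33.7) and Brip1 (27.8). The ranges of neighbours overlapped from Nthl1 to Mms19, from Mms19 to Ercc2, from Ercc2 to Rtel1 and from Ddx11 to Dna2, and the other neighbours did not overlap. Ciao1 and Ciapin1 thus stood at the top of this scale and Brip1 at its end. Mms19, the third targeting or assembly factor, ranked below Nthl1, with overlapping ranges. The length used joins all annotated exons of a gene, 10415 bases for Mms19, and whether all of them were expressed was not tested.

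Some exons are shared with neighbours. In the annotation used here, 744 bases (17.8%) of Ercc2 exon overlap Klc3 on the opposite strand. A non-coding gene that is not among the counted genes overlaps 1025 bases (24.6%) of Ercc2 exon. For Mms19, 709 bases (6.81%) overlap Zdhhc16, and for Ciapin1, 38 bases overlap Coq9. The strand setting of the counting is not given in the sources used here, so the counts of Ercc2 and Mms19 are uncertain. The share of exon bases does not give the share of reads affected.

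Partners in the same steps were taken as lists, described by counts and medians beside all genes tested, of which the median log2 fold change was 0.0071. The median of the 10 genes was -0.35. Of 8 other cytosolic assembly factors, among them Nubp1, Nubp2 and Fam96b, 0 were higher and 0 lower, with a median of 0.17. Of 17 other cytosolic and nuclear iron-sulfur proteins, 1 was higher and 0 were lower (median -0.077). Without TfR1 knockout replicate 1 there were 2 higher and 2 lower, without Control replicate 3 there were 2 higher, and total-count scaling or a replicate block gave 1 lower. The higher gene was Xdh, xanthine dehydrogenase of purine breakdown, with 389 ± 92.3 normalized counts in Control and 811 ± 73.4 in knockout libraries (log2 fold change 1.06, SE 0.23, DESeq2 adjusted p 1.35e-04).

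Of 16 TFIIH and nucleotide excision repair partners of Ercc2, 1 rose and 1 fell (median -0.037). Ercc5, the XPG nuclease, had 593 ± 41.6 normalized counts in Control and 1158 ± 324 in knockout libraries and rose by 0.96 on the log2 scale (DESeq2 adjusted p 0.00191). Gtf2h2, a TFIIH core subunit, fell from 637 ± 20.0 to 349 ± 38.2 (log2 fold change -0.87, DESeq2 adjusted p 1.76e-05). Both calls were kept by edgeR, at adjusted p values of 0.0439 and 0.0214. limma-voom called 0 of the 16 higher and 1 lower, so the call of Ercc5 was lost with that tool. Of 10 telomere genes near Rtel1 in function, 0 passed in either direction (median -0.14).

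Of the 15 base excision repair partners tested, 2 fell and 0 rose (median -0.18). Neil3, a glycosylase of dividing cells, had 315 ± 48.6 in Control and 93.4 ± 38.7 in knockout libraries (normalized counts). Its log2 fold change was -1.75 (SE 0.35, DESeq2 adjusted p 2.05e-05), also past the threshold under edgeR (adjusted p 0.0310). Neil2 fell from 46.4 ± 3.48 to 20.5 ± 5.36 (log2 fold change -1.18, DESeq2 adjusted p 0.0372), not past it under edgeR (adjusted p 0.0807). The 2 became 4 without TfR1 knockout replicate 1 and 1 without any other single library.

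Of 17 homologous recombination and Fanconi partners of Brip1, 4 fell and 0 rose (median -0.47). These were Bard1, Fancd2, Fancc and Brca1, with log2 fold changes of -1.10, -1.07, -0.57 and -0.88 (DESeq2 adjusted p 0.00315, 0.0183, 0.0427 and 0.0463). edgeR called 0 of the 17, and DESeq2 called 1 when any single library other than TfR1 knockout replicate 1 was left out. Of 20 end resection, fork and cohesion partners of Dna2 and Ddx11, 5 fell and 0 rose (median -0.25). The cohesin acetyltransferase gene Esco2 had 329 ± 33.9 in Control and 132 ± 30.3 in knockout libraries (normalized counts). Its log2 fold change was -1.31 (SE 0.25, DESeq2 adjusted p 8.67e-06), and it was the 1 gene of this list that edgeR called. Rpa3, Wdhd1 and Tipin had log2 fold changes of -0.68, -1.11 and -0.87 (DESeq2 adjusted p 0.00997, 0.0165 and 0.0235), and Rpa1 of -0.41.

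Proliferation markers were counted in the same way as these lists. Of 16, 13 fell and 0 rose (median -0.97), and edgeR called 5. Ccnb2 and Mki67 had log2 fold changes of -0.97 and -1.49 (DESeq2 adjusted p 2.54e-07 and 2.95e-05). Summed over the 16 markers, the Control libraries held 18496, 18849 and 22098 normalized counts and the knockout libraries 13162, 7456 and 9783, each in replicate order. Among knockout libraries the sum was highest in replicate 1 and lowest in replicate 2. Of the 10 genes, 4 (Dna2, Ddx11, Mutyh and Rtel1) stood in that order. For Rtel1, knockout replicates 1 and 3 were nearly tied, at 599.6 and 596 normalized counts. How many of all genes stood in that order was not counted. Another 4 (Brip1, Nthl1, Ciapin1 and Ciao1) were highest in replicate 2 and lowest in replicate 3. Mms19 was highest in replicate 2 and lowest in replicate 1, and Ercc2 was highest in replicate 3. The part of proliferation in the values of the 10 genes was not tested.

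**Figure D4:**
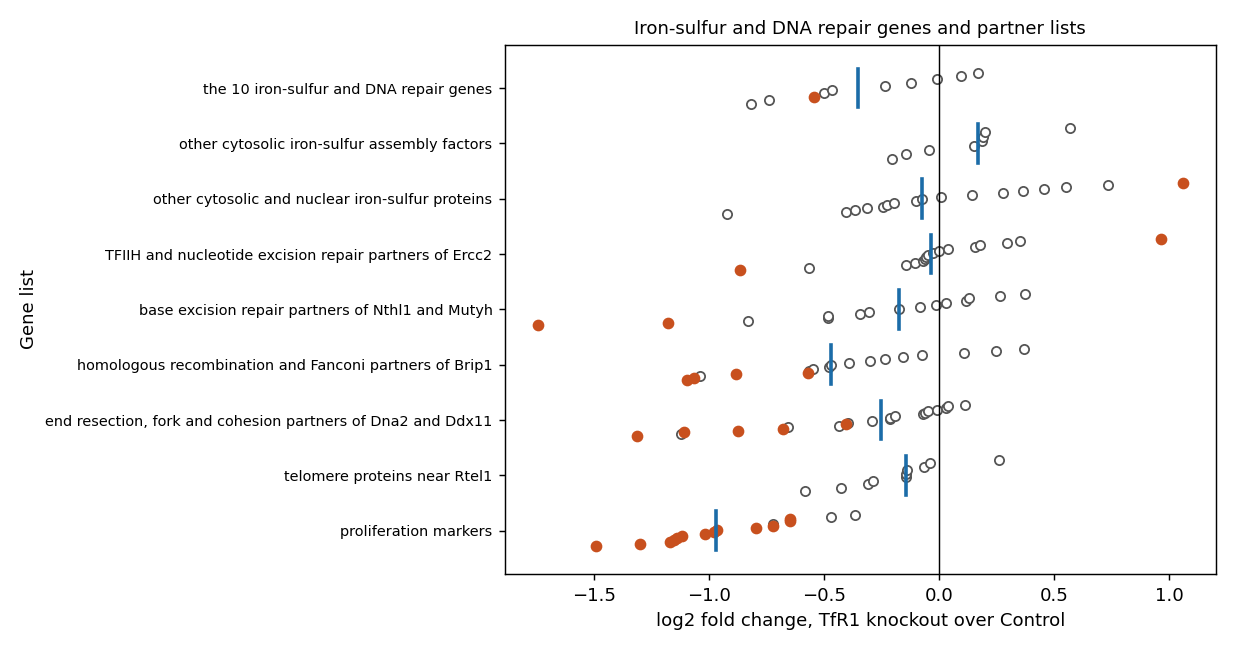
Log2 fold change of TfR1 knockout over Control for each tested gene of the 10 and of 8 further lists, filled where the DESeq2 adjusted p was under 0.05, with a blue bar at each list's median. The median of the proliferation markers lies at -0.97, and that of the other cytosolic assembly factors at 0.17.

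None of the 10 genes rose, so pattern likeness was taken for Dna2 only. Of 12113 genes whose mean normalized count was 100 or more, the 3 closest to Dna2 over the 6 libraries were Rhobtb1, Ttc4 and Tra2b, with a mean absolute difference of 0.019, 0.023 and 0.034 in centred log2 values. Their log2 fold changes were -0.54, -0.55 and -0.49, which their choice as the closest genes made near that of Dna2.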

How the data were processed

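Poly-A RNA of 6 kidneys was sequenced as single-end reads. Per the labels and the study's methods, the authors used CASAVA 1.8.2, trimmed with Trimmomatic, aligned to mm9 with TopHat 2.0.11 and kept uniquely mapped reads. The values they deposited are whole-number read counts for each gene from HTSeq, not normalized. Unique counting drops reads shared by near-identical genes. The HTSeq version, annotation and strand setting are not given in the sources used here.

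Groups and replicate numbers came from the sample titles. DESeq2 1.42.0 in R 4.3.3, the tool the study names, was fitted on all 24422 genes (Wald test, median-ratio size factors, no covariate, independent filtering tuned at 0.05, Benjamini-Hochberg adjustment), which left 16509 genes tested. Normalized counts are raw counts divided by the size factor. Alternatives were edgeR 4.0.16, limma 3.58.1 with voom, other scalings and filters, a replicate block, and fits without 1 library. Depth was 16591156 to 22898008 counts per library, which at 29 counts, the lowest value of the 10 genes, leaves a counting error of 18.6%. The sample labels name no animals, although the study gives 3 mice per model, so the p-values measure the spread between these samples. No pair agreed within counting noise.

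The 10 genes, the lists and the promoter words were chosen with earlier results of these data known. The genes named were the 10, Tfrc, up to 4 called genes per partner or proliferation list by smallest adjusted p, with Rpa1 added after its value was seen, and the 3 genes most like Dna2. Positions and exon lengths came from GENCODE for NCBIM37, matched by symbol. Promoters came from RefSeq (GRCm38.p6) and were matched to NCBIM37 by exact sequence. The code was tested on simulated counts.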

Additional observations from a re-analysis of the deposited data

How the results depend on the processing

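The count of the 10 genes called lower was 1 with DESeq2. It was 0 with edgeR, 0 with limma-voom, 0 with the replicate number as a block, 0 at a fold change of at least 2, and 3 with total-count scaling (Dna2, Brip1 and Ciao1). With 1 library left out it ran from 0 to 3, the 3 (Dna2, Ddx11 and Mutyh) without TfR1 knockout replicate 1 and 0 in each of the other 5 fits. Over all genes, 10.5% were lower without that library and 3.59% to 6.78% in the other 5, and the cause of these movements was not tested. The count called higher was 0 throughout. Total-count scaling gave 996 higher and 1407 lower of all genes, against 1277 and 1186, and turned Ercc2 to -0.0020. With 1 library left out, the log2 fold change of Ercc2 ran from -0.015 to 0.18, that of Ciapin1 from -0.14 to 0.075 and that of Tfrc from -0.095 to 0.30. The correlations of same-numbered libraries, centred within each group, were -0.0378, 0.0548 and 0.0899, which gave no sign of pairing by number. Differently numbered libraries were not compared, so this check cannot exclude a shared litter or batch. The study describes littermate controls, but replicate numbers are not known to mark litters. The main fit was therefore not paired by litter. The block gave Dna2 a DESeq2 adjusted p of 0.188. Over all genes edgeR called 493 higher and 428 lower, and limma-voom 485 and 456. Lower genes among partners of Brip1 numbered 4, but 0 with edgeR or limma-voom and 2 without a filter on low counts. Those among partners of Dna2 and Ddx11 numbered 5, but 1 with either tool and 3 with the block. Proliferation markers numbered 13, but 5 with either tool. Without 1 library these 3 counts ran from 1 to 4, from 1 to 7 and from 6 to 14, each highest without TfR1 knockout replicate 1. Among the 10 genes, over the settings with all libraries, 84 log2 results kept their direction and side of the threshold, 3 lost the call, 2 gained one and 1 turned. With 1 library left out these numbers were 47, 5, 2 and 6.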
